A study of Arabidopsis thaliana with 3 samples.

Results

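The xyloglucan endotransglucosylase/hydrolase family of Arabidopsis thaliana, XTH1 to XTH33, was followed in seedlings that produce a repressor form of the growth regulator IBH1. The members were the array probes whose locus is that of an XTH gene. All 33 genes had a probe, a single one each, among 25665 loci on the array. Total RNA of whole seedlings aged 10 d was compared between 2 genotypes in the Col-0 background, 35S:AtIBH1-SRDX and wild type (wt). Both were grown on MS agar with 1% sucrose at 23 °C in 16 h of light and 8 h of dark. Each of 3 two-colour Agilent arrays carried RNA of both genotypes from 1 biological replicate pair. IBH1-SRDX was labelled with Cy3 on arrays 1 and 3 and with Cy5 on array 2. The 35S promoter is active in most plant tissues, so the transgene is not limited to the cells that normally express IBH1. The sources used here do not say whether the transgenic plants were 1 line or several, nor how many seedlings made a sample.

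Xyloglucan is the main hemicellulose of the primary wall in this plant and coats and links cellulose microfibrils. XTH enzymes cut a xyloglucan chain and join the new end either to another xyloglucan chain, which remodels the wall without shortening its polymers, or to water, which breaks the chain down. The genes are known for expression in particular growing organs and for control by brassinosteroid, auxin, gibberellin, shade and touch. IBH1 is a helix-loop-helix protein that restrains cell elongation, and SRDX is a short plant repression domain that makes the transcription factor it is fused to act as a dominant repressor. The comparison addresses which XTH transcripts differ when this fusion is produced. Each gene's value is a log2 ratio, IBH1-SRDX divided by wild type, given for arrays 1, 2 and 3 in that order or as a mean ± SE from limma (n = 3 arrays). A gene was called at an adjusted p below 0.05 over all 19875 loci tested.

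Between 58.8% and 63.5% of the spots in each channel were well above background, and 0 spots were saturated. With 3 arrays, precision is limited by their number. The probe of IBH1 (AT2G43060) gave -0.88, -0.60 and -0.67, and so fell in the repressor plants (-0.71 ± 0.09, adjusted p = 0.00118 in limma). The stretch of transcript under that probe is unknown here, and it therefore does not check the labels. The probe of SUP (AT3G23130), the gene from whose protein SRDX was derived, gave 8.06, 8.42 and 7.87. Every direction reported rests on the labels of the channels.

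Most XTH transcripts that seedlings expressed were lower in IBH1-SRDX. Of the 33 genes, 29 passed the filter of being well above background in at least 1 genotype on all 3 arrays, 28 of them in both genotypes. Of these 29, 17 fell, 3 rose and 9 did not pass the test. The 17 include XTH25, which passed the filter through wild type alone. Over all loci tested, 19.9% fell and 18.6% rose, 38.4% in either direction. The counts of each list and marker set below, many of them small, are to be read beside these shares. The median log2 ratio of the 29 was -0.43, against 0.00 for all loci, and 9 were at least 2-fold lower while 1 was at least 2-fold higher. When local backgrounds marked as outliers were kept, 10 members were lower and 2 higher, beside 1918 and 1141 of the 19875 loci. With median centring in place of loess, 9 were lower and 1 higher, beside 674 and 591 of the 19875 loci. The member lists were chosen with earlier results of these data known, so the counts describe the family and are given no test of their own.

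**Figure D1:**
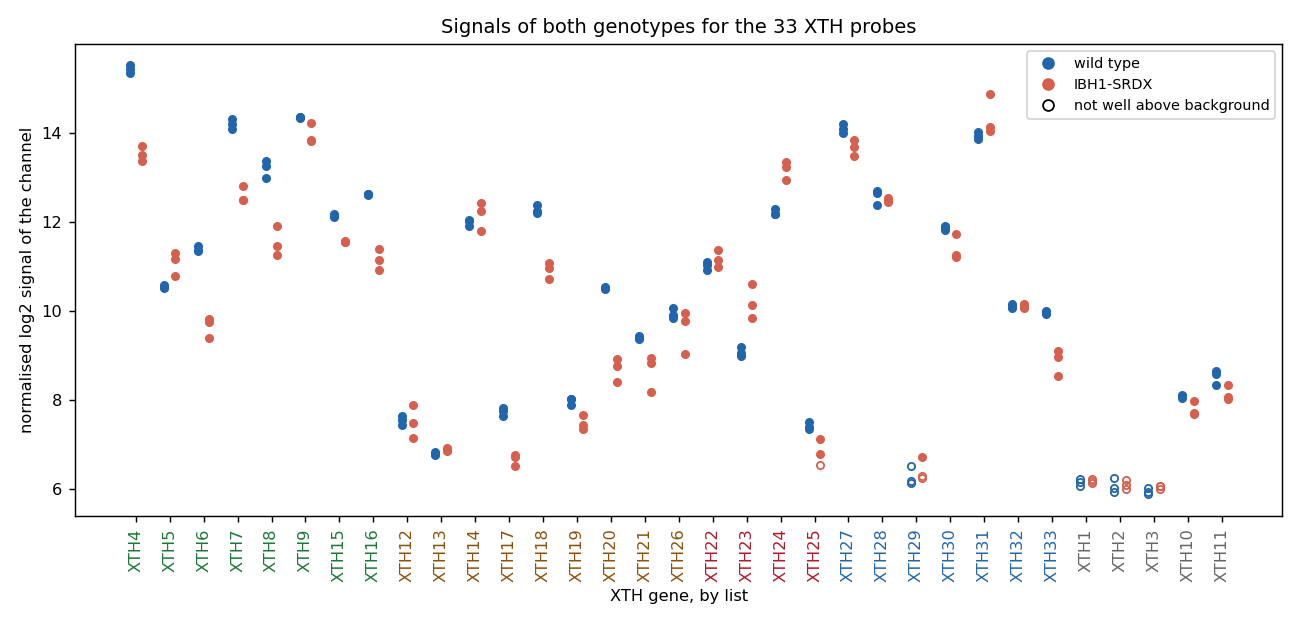
Normalised log2 signal of the 33 XTH probes (y axis) for wild type (blue) and IBH1-SRDX (red), 1 point per array and genotype, ordered by list on the x axis; open points were not well above background, and levels of different probes cannot be set against each other. XTH1, XTH2 and XTH3 lie at the background in both genotypes, and the red points of XTH4, XTH6, XTH7, XTH8 and XTH16 lie below all the blue ones.

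The signals of the 2 genotypes did not overlap over the 3 arrays for 23 of the 29 genes, with IBH1-SRDX below wild type in 18 and above it in 5. Over all loci, 27.3% were below and 26.7% above without overlap. The genes that overlapped were XTH12, XTH14, XTH22, XTH26, XTH28 and XTH32, and none of these was called. XTH10, XTH13 and XTH31, without overlap, also missed the threshold. The spread between arrays was larger on the IBH1-SRDX side. In 27 of the 29 genes the SD of the 3 IBH1-SRDX signals exceeded that of the wild-type signals, as it did in 71.0% of all loci, with a median SD of 0.22 for IBH1-SRDX and 0.08 for wild type (log2 signal). For all loci these medians were 0.12 and 0.07. Array 2, the dye-swapped one, gave the highest or lowest of the 3 ratios in 24 of the 29 genes and in 77.9% of all loci, and replicate and dye orientation cannot be told apart there.

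The family members linked to growing shoot tissue held 5 of the 9 genes that were at least 2-fold lower. This list held XTH4 to XTH9, XTH15 and XTH16, all well above background in both genotypes on every array. Of the 8, 7 fell and 1 rose, with a median of -1.53. XTH4 (AT2G06850), an endotransglucosylase known from elongating and vascular tissue and also named EXGT-A1, had log2 signals of 13.50, 13.35 and 13.71 in IBH1-SRDX and of 15.33, 15.51 and 15.43 in wild type. Its ratios were -1.83, -2.16 and -1.72. All 3 arrays lay on the lower side, and the mean of -1.90 ± 0.10 (adjusted p = 5.94e-05) corresponds to a 3.74-fold lower level. Only 0.332% of all tested loci had a lower mean ratio.

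XTH6 (AT5G65730) gave -1.54, -1.95 and -1.71, a mean of -1.73 ± 0.10 (adjusted p = 6.78e-05). XTH7 (AT4G37800) gave -1.39, -1.82 and -1.60, a mean of -1.61 ± 0.10 (adjusted p = 9.21e-05). XTH16 (AT3G23730) gave -1.22, -1.67 and -1.49, a mean of -1.46 ± 0.10 (adjusted p = 0.000141). In each of XTH4, XTH6, XTH7 and XTH16 the dye-swapped array 2 gave the deepest ratio, and no signal of IBH1-SRDX reached the lowest of wild type. XTH8 (AT1G11545) fell by 1.67 ± 0.14 (adjusted p = 0.000303), and there array 1 was the deepest, at -2.12.

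Falls in the rest of this list were shallower. XTH15 (AT4G14130), also named XTR7 and known for its induction in shade, fell by 0.58 ± 0.08 (adjusted p = 0.00147), and its 3 arrays lay within -0.60 and -0.56. XTH9 (AT4G03210), known from shoot apices and from cambial growth, stood at -0.39 ± 0.10 (adjusted p = 0.0214). Its array values were -0.14, -0.50 and -0.53, and it was not called without replicate 2 (adjusted p = 0.059) or without replicate 3 (adjusted p = 0.0669). XTH5 (AT5G13870), also named EXGT-A4, went the other way with 0.57, 0.26 and 0.76. Every array lay above 0, and its mean of 0.53 ± 0.11 (adjusted p = 0.00875) placed it above 91.8% of all tested loci. The call of XTH5 ended with outlier backgrounds kept (adjusted p = 0.0618) and with median centring (adjusted p = 0.722).

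**Figure D2:**
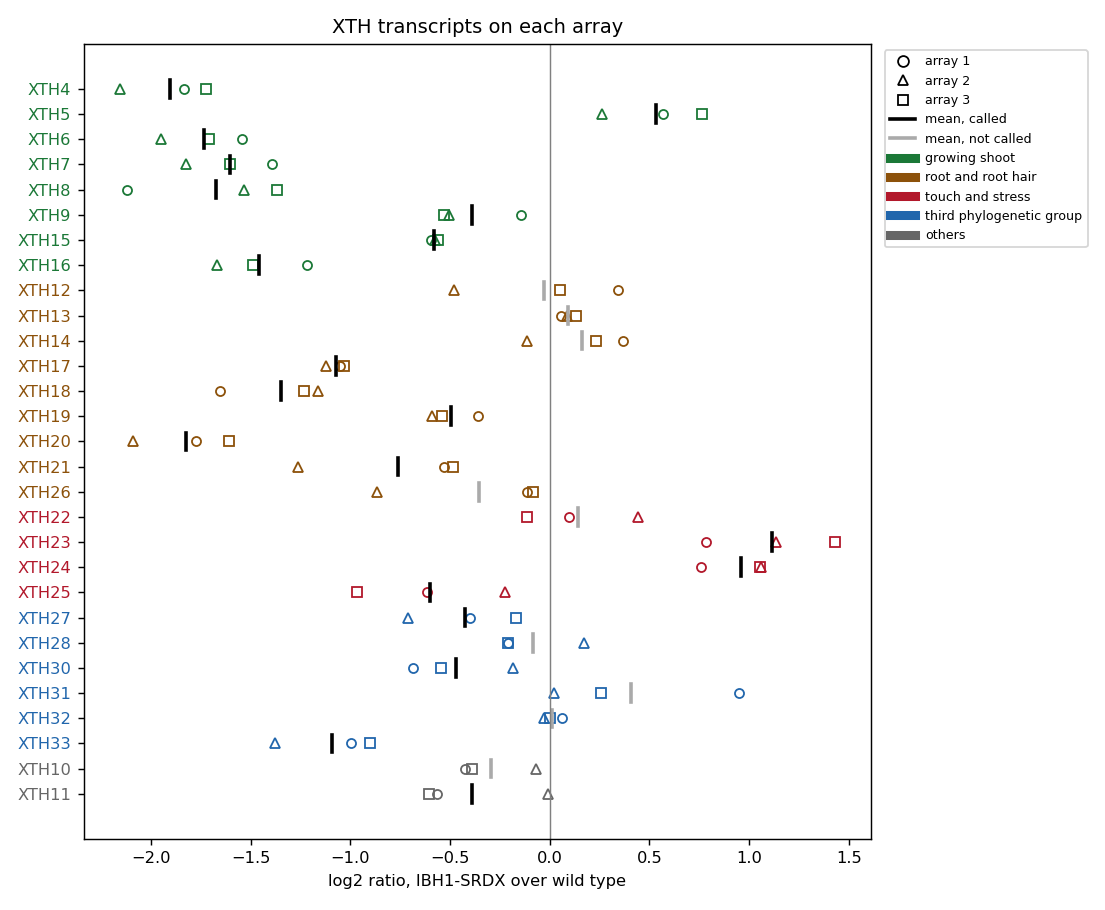
Log2 ratio of IBH1-SRDX over wild type (x axis) of the 29 tested XTH genes on arrays 1 (circles), 2 (triangles) and 3 (squares), coloured by list, with the mean as a bar that is black where the gene was called. In the growing-shoot list only XTH5 lies above 0, and in the touch list XTH23 and XTH24 lie above 0 while XTH25 lies below.

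Leaf markers were checked beside these shoot genes. Of 5, 2 were lower and 0 higher, namely the Rubisco small subunit gene RBCS3B at -0.89 ± 0.08 and the antenna gene LHCA2 at -0.85 ± 0.08. RBCS1A at -0.28 ± 0.10, LHCA1 at -0.24 ± 0.15 and LHCB2.1 at 0.05 ± 0.08 were not called. The summed linear signal of the 4 markers measured on every array was 178763 to 210039 in IBH1-SRDX and 308281 to 324934 in wild type, and none was at background in either genotype. The sum leaves out RBCS1A, which had no value on array 2, and RBCS3B was its brightest member, so it mainly follows few probes. A smaller share of a tissue and less transcript per cell cannot be told apart in whole seedlings. The part of leaf share in the XTH ratios was not tested.

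The root members differed among themselves. Of the 9 members of the list linked to roots and root hairs, 5 fell, 0 rose and 4 did not pass the test, with a median of -0.50. The 5 that fell were XTH17 to XTH21. XTH20 (AT5G48070), known from the vascular tissue of the root, gave -1.77, -2.09 and -1.61, a mean of -1.82 ± 0.11 (adjusted p = 7.46e-05), or 3.54-fold lower. XTH18 (AT4G30280), which is needed for normal length of root epidermal cells, gave -1.65, -1.16 and -1.23, a mean of -1.35 ± 0.11 (adjusted p = 0.000254). No array of either gene came near 0.

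XTH17 (AT1G65310), a gene also linked to petiole elongation in shade, gave -1.05, -1.12 and -1.03, a mean of -1.07 ± 0.08 (adjusted p = 0.000145). XTH19 (AT4G30290) gave -0.36, -0.59 and -0.54, a mean of -0.50 ± 0.08 (adjusted p = 0.0042). The ratios of both depended on the settings, and the cause was not tested. Without background correction XTH17 stood at -1.02 and XTH19 at -0.51. With the Feature Extraction log ratio, XTH17 stood at -2.34 and XTH19 at -0.82. With outlier backgrounds kept, XTH17 stood at -0.71 and was not called (adjusted p = 0.064). XTH21 (AT2G18800), which is needed for normal growth of the primary root, fell by 0.76 ± 0.16 (adjusted p = 0.00883), with -1.26 on array 2 against -0.53 and -0.48 on arrays 1 and 3. Cross-hybridisation between close relatives, such as XTH17, XTH18 and XTH19, XTH12 and XTH13, or XTH22 and XTH25, was not examined.

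The 4 root-list genes that did not pass the test were XTH12, XTH13, XTH14 and XTH26. XTH14 (AT4G25820), a root endotransglucosylase, gave 0.37, -0.11 and 0.23, a mean of 0.16 ± 0.11 (adjusted p = 0.272) and a 95% interval of -0.09 to 0.42. XTH13 (AT5G57540) gave 0.06, 0.09 and 0.13, with an interval of -0.09 to 0.27. The interval was -0.39 to 0.33 for XTH12 (AT5G57530). For XTH26 (AT4G28850), which acts in root hair cells, it was -0.73 to 0.02. XTH26 rested on array 2, which gave -0.87 against -0.11 and -0.08 on the other arrays. It was called lower with a dye term (adjusted p = 0.00281) and without replicate 3 (adjusted p = 0.00749). Without replicate 3 only -0.11 and -0.87 remained, and that adjusted p came mainly from the spread pooled over genes.

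Markers of root tissues and of root hairs were set beside these genes. Of 13 root markers, 7 were lower and 2 higher, with a median of -0.32. The lower ones were CASP1 to CASP5, ESB1 and NRT2.1, so the count does not stand for the root as a whole. PLT1 at -0.11 ± 0.08, PLT2 at -0.17 ± 0.08, IRT1 at -0.01 ± 0.12 and FRO2 at -0.14 ± 0.11 were not called. The nitrate transporter gene NRT2.1 stood at -1.50 ± 0.20, and CASP1 of the Casparian strip at -1.06 ± 0.10, while PHO1, which loads phosphate into the xylem, stood at 0.58 ± 0.12 and the endodermal regulator MYB36 at 0.44 ± 0.14. CASP5 was at background on all 3 arrays in IBH1-SRDX, so its level is only bounded there, at least 2.24-fold lower. CASP5 passed the filter through wild type alone and so could enter the test only as lower. None of the 13 (0) was at background in wild type. The summed signal of the 13 was 12692 to 16727 in IBH1-SRDX and 23140 to 24313 in wild type. NRT2.1 and CASP1 were its brightest members in wild type. Of 6 root hair markers, 3 were higher and 0 lower, with a median of 0.24, and the root hair regulator RSL4 stood at 0.60 ± 0.08. Their summed signal was 5204 to 5620 in IBH1-SRDX and 4661 to 4795 in wild type, and none was at background. The part of root or root hair share in the XTH ratios was not tested.

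The members known for induction by touch and stress, XTH22 to XTH25, went in different directions. Of the 4, 2 rose, 1 fell and 1 did not pass the test. XTH23 (AT4G25810), listed in the reference as XTR6, had log2 signals of 9.84, 10.13 and 10.61 in IBH1-SRDX and of 9.06, 8.997 and 9.18 in wild type. Its ratios were 0.78, 1.13 and 1.43. All arrays were higher, and the mean of 1.12 ± 0.13 (adjusted p = 0.000841), or 2.17-fold, was the highest of the family. XTH24 (AT4G30270), known as MERI5B and as the senescence gene SEN4, gave 0.76, 1.06 and 1.06, a mean of 0.96 ± 0.09 (adjusted p = 0.00046). Its call ended with median centring (adjusted p = 0.108), where it stood at 0.83.

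XTH22 (AT5G57560), which is the touch gene TCH4 and also responds to brassinosteroid and auxin, gave 0.10, 0.44 and -0.11. The arrays lay on both sides of 0, and the mean of 0.14 ± 0.12 (adjusted p = 0.369) had a 95% interval of -0.13 to 0.42. XTH25 (AT5G57550) had log2 signals of 6.78, 7.13 and 6.54 in IBH1-SRDX and of 7.40, 7.35 and 7.50 in wild type. The ratios of -0.62, -0.23 and -0.97 averaged -0.60 ± 0.14 (adjusted p = 0.0135). Its IBH1-SRDX signal was well above background on 2 of 3 arrays, so that it passed the filter through wild type alone. Such a filter favours genes that are lower in IBH1-SRDX, so the call of XTH25 is to be read with that limit. Its mean was -1.66 by Feature Extraction's own log ratio. With outlier backgrounds kept it was -0.37, and the call ended (adjusted p = 0.164).

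Set against each other, the touch list had a higher mean than the growing-shoot list on each array. The mean log2 ratio of the touch list was 0.26, 0.60 and 0.35 on arrays 1, 2 and 3, and that of the growing-shoot list was -1.03, -1.24 and -1.03. The difference was 1.29, 1.85 and 1.38, a mean of 1.50 ± 0.30 (SD, n = 3). This difference was computed on lists chosen with results known and is given with no test. The lists overlapped: XTH5 of the growing-shoot list stood at 0.53, above XTH22 and XTH25. XTH25 at -0.60 also stood below XTH15 at -0.58 and XTH9 at -0.39. When the filter asked for both genotypes above background, XTH25 left the list and the difference was 1.84. With the Feature Extraction log ratio it was smaller, at 1.32.

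**Figure D3:**
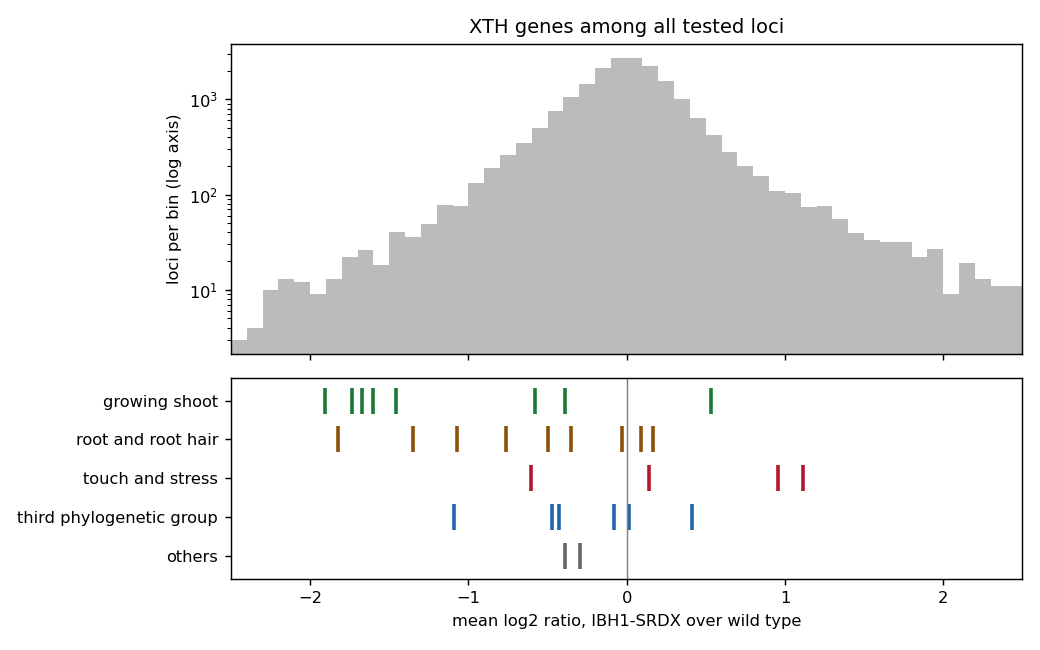
Number of tested loci per bin of 0.1 in mean log2 ratio (upper panel, log axis, loci beyond ±2.5 not drawn) and the mean log2 ratio of each tested XTH gene by list (lower panel, 1 tick per gene). The growing-shoot ticks gather between -1.90 and -1.46 with XTH15, XTH9 and XTH5 apart, and the touch ticks run from -0.60 to 1.12.

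Other genes known for rapid induction by touch were also higher in part. Of 7 such genes outside the family, 4 were higher, 0 lower and 3 did not pass the test, with a median of 0.47. Over all loci, 18.6% were higher and 19.9% lower. The transcription factor gene WRKY40 gave 1.15, 2.08 and 1.43 (1.55 ± 0.17, adjusted p = 0.000692). ZAT12, a zinc finger gene of stress responses, gave 1.19, 1.82 and 0.91 (1.30 ± 0.16, adjusted p = 0.00126). CML12, the calmodulin-like gene TCH3, gave 0.87, 0.83 and 0.39 (0.70 ± 0.11, adjusted p = 0.00329). The remaining touch-named genes, CAM2 at -0.23 ± 0.08 and CML24 (TCH2) at 0.10 ± 0.08, were not called (adjusted p = 0.0506 and adjusted p = 0.348).

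The third phylogenetic group, XTH27 to XTH33, holds the members closest to xyloglucan hydrolases. Of its 7 genes, 6 were tested, of which 3 fell, 0 rose and 3 did not pass the test, with a median of -0.25. XTH33 (AT1G10550), which is anchored in the plasma membrane, gave -0.99, -1.38 and -0.90. Every array lay far below 0, and the mean of -1.09 ± 0.11 (adjusted p = 0.000527) was 2.13-fold lower. XTH30 (AT1G32170), linked to salt responses, gave -0.68, -0.18 and -0.55 (-0.47 ± 0.11, adjusted p = 0.0148). XTH27 (AT2G01850), known from tracheary elements of leaf veins, gave -0.40, -0.71 and -0.17 (-0.43 ± 0.11, adjusted p = 0.024). Without replicate 1 neither XTH30 (adjusted p = 0.0971) nor XTH27 (adjusted p = 0.0794) was called. Without replicate 2 XTH27 stood at -0.28 and was not called (adjusted p = 0.051).

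Both genes of the hydrolase-like branch, XTH31 and XTH32, missed the threshold. XTH31 (AT3G44990), linked to aluminium tolerance in roots, gave 0.95, 0.02 and 0.26, so that array 1 stood well apart. Its mean was 0.41 ± 0.17 (adjusted p = 0.0966). XTH31 was called higher without replicate 2 (0.61, adjusted p = 0.0341) and without replicate 3 (0.49, adjusted p = 0.0107). The latter call rested on 0.95 and 0.02, so its adjusted p came mainly from the spread pooled over genes and does not measure that of XTH31. XTH32 (AT2G36870) gave 0.06, -0.03 and 0.00, with a 95% interval of -0.17 to 0.19. XTH28 (AT1G14720), needed for growth of stamen filaments, gave -0.21, 0.17 and -0.21 (-0.08 ± 0.10, adjusted p = 0.553). XTH29 (AT4G18990) was above background in IBH1-SRDX on 1 array and in wild type on 0, and was not tested.

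Xylem markers were lower beside XTH27. All 10 fell, with a median of -0.70, among them FLA11 at -0.89 ± 0.08, the laccase gene LAC17 at -0.86 ± 0.09 and FLA12 at -0.82 ± 0.12. Their summed signal was 10830 to 11001 in IBH1-SRDX and 17612 to 18196 in wild type, and none was at background. The part of xylem share in the ratios of XTH27, XTH4, XTH9 and XTH20 was not tested.

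The remaining genes of the first phylogenetic group were at background or close to the threshold of the test. XTH1, XTH2 and XTH3 were not well above background in either genotype on any array, so that no level or ratio is reported for them. XTH3 is known for joining xyloglucan and cellulose chains. XTH11 (AT3G48580) gave -0.56, -0.01 and -0.60 (-0.39 ± 0.13, adjusted p = 0.0496), and array 2 was close to 0. XTH10 (AT2G14620) gave -0.42, -0.07 and -0.39 (-0.29 ± 0.10, adjusted p = 0.0507). The pair thus had array values of the same pattern and lay on either side of the threshold. Of 12 alternative settings, 7 ended the call of XTH11 and 5 made a call of XTH10. Floral markers were higher in part, 2 of the 3 tested among 5, with SEP3 at 2.05 ± 0.19 and AP3 at least 1.72-fold higher. PI at 0.18 ± 0.14 was not called. AP3 passed the filter through IBH1-SRDX alone and so could enter the test only as higher. The summed signal of the 3 was 1590 to 3497 in IBH1-SRDX and 606 to 715 in wild type. SEP3 was its brightest member in both genotypes, so the sum mainly follows that probe. AP3 and AG were at background in wild type, and the part of the floral markers in any XTH ratio was not tested.

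**Figure D4:**
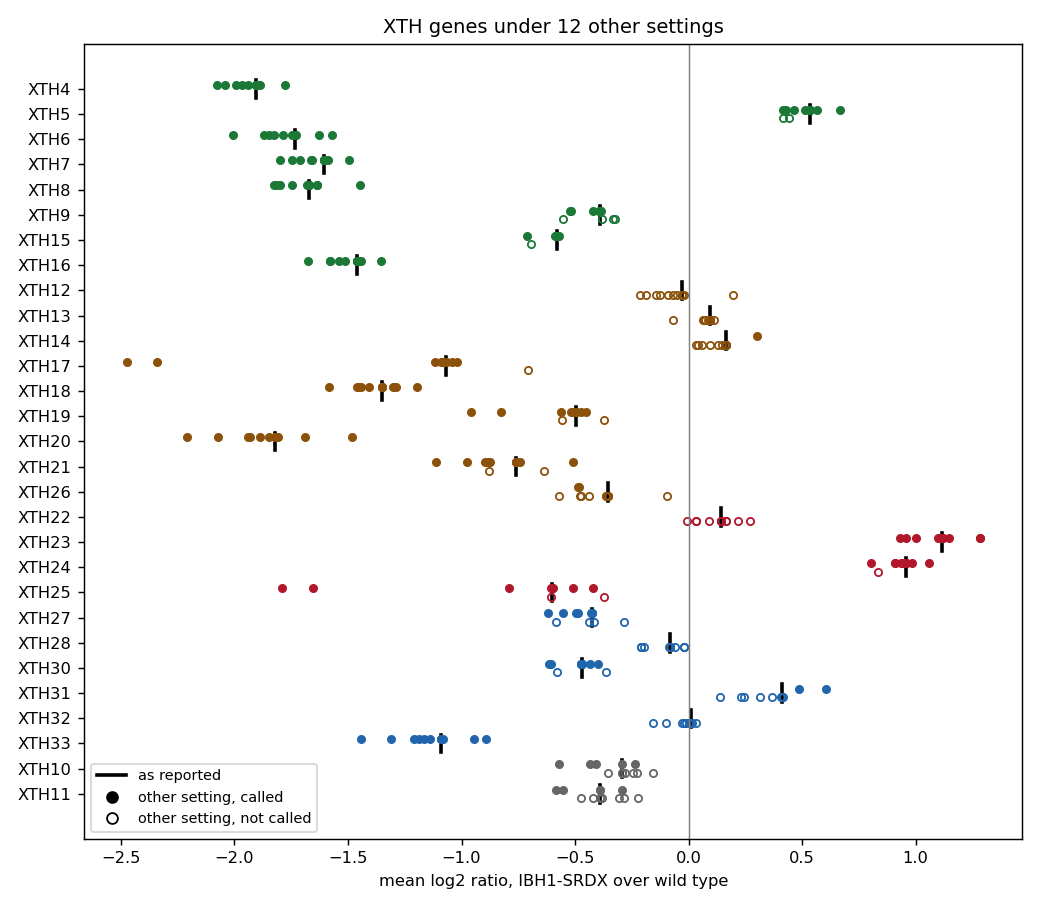
Mean log2 ratio (x axis) of the 29 tested XTH genes as reported (black bars) and under 12 other settings of preparation and fit (points, filled and raised where the gene was called, open and lowered where it was not), coloured by list. The points of XTH4, XTH6, XTH7, XTH8, XTH16, XTH18, XTH20, XTH23 and XTH33 are filled throughout, and XTH17 and XTH25 have points far to the left of their bars.

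Of the 20 called genes, 9 were called in the same direction under each of the 12 settings. The settings are not independent checks. Each member had a single probe, so changing the filter or averaging probes left its ratio as it was and could alter only its adjusted p. The series table is the Feature Extraction log ratio shifted by a constant. The 9 genes were XTH4, XTH6, XTH7, XTH8 and XTH16 of the growing-shoot list, XTH18 and XTH20 of the root list, XTH33 and, as the only one that rose, XTH23. Their means covered -2.08 to -1.78 for XTH4, -2.21 to -1.48 for XTH20 and 0.93 to 1.28 for XTH23 over these settings. Keeping outlier backgrounds ended the calls of 8 members, XTH5, XTH9, XTH11, XTH17, XTH19, XTH21, XTH25 and XTH27. Median centring ended those of 10, XTH5, XTH9, XTH11, XTH15, XTH19, XTH21, XTH24, XTH25, XTH27 and XTH30. Under median centring the members' adjusted p followed the size of the mean ratio, at 0.0303 for XTH23 (1.00) and 0.0802 for XTH21 (-0.88). A call that ended there thus marks a smaller ratio and does not measure the spread of that gene's arrays. No called member turned its sign in any of the 12.

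Neighbouring XTH genes could differ in direction. By the gene order of the reference, 10 members lie in 4 runs of adjacent protein-coding genes. In the run of XTH24, XTH18 and XTH19 on chromosome 4, XTH24 rose by 0.96 while XTH18 fell by 1.35 and XTH19 fell by 0.50. No array value of XTH24 was below 0.76, and none of XTH18 was above -1.16. In the pair of XTH23 and XTH14 on the same chromosome, XTH23 rose by 1.12 and XTH14 was not called at 0.16. In the run of XTH13, XTH25 and XTH22 on chromosome 5, XTH25 fell by 0.60 and neither neighbour was called. The pair of XTH1 and XTH2 was at background.

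Genes that make and trim the substrate of the family were lower in part. Of 23 other xyloglucan genes, all tested, 11 fell, 1 rose and 11 did not pass the test, with a median of -0.22. Over all loci, 19.9% fell and 18.6% rose. XYL1, the alpha-xylosidase that trims xyloglucan side chains, gave -1.15, -1.30 and -1.12 (-1.19 ± 0.08, adjusted p = 0.000123) and was the only gene of the list past 2-fold. BGAL10, the beta-galactosidase of xyloglucan, gave -1.12, -0.69 and -0.85 (-0.89 ± 0.10, adjusted p = 0.000866). CSLC4, a synthase of the glucan backbone, gave -1.02, -0.96 and -0.84 (-0.94 ± 0.08, adjusted p = 0.000295). All 3 genes were lower on every array. Other CSLC genes had smaller ratios than CSLC4. CSLC5 at -0.36 ± 0.10 and CSLC8 at -0.41 ± 0.12 were lower, while CSLC6 at -0.11 ± 0.08 and CSLC12 at -0.07 ± 0.08 were not called.

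The side chain genes also showed smaller ratios than XYL1, BGAL10 and CSLC4. The list's single rise was XXT4, a xylosyltransferase gene, with 0.20, 0.18 and 0.41 (0.26 ± 0.08, adjusted p = 0.0475). Its relatives XXT1 at -0.52 ± 0.09, XXT3 at -0.32 ± 0.08 and XXT5 at -0.35 ± 0.09 were lower, and XXT2 at -0.09 ± 0.08 was not called. Among the galactosyltransferase genes XLT2 was lower at -0.57 ± 0.08 and MUR3 was not called at -0.07 ± 0.09. MUR1, which makes the fucose donor, was lower at -0.46 ± 0.08, and the fucosyltransferase gene FUT1 was not called at 0.20 ± 0.09. The counts of the list were 6 lower and 0 higher with outlier backgrounds kept, beside 1918 and 1141 of all loci. With median centring they were 3 lower and 0 higher, beside 674 and 591. Without replicate 1 they were 7 lower and 0 higher, beside 2490 and 2319.

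**Figure D5:**
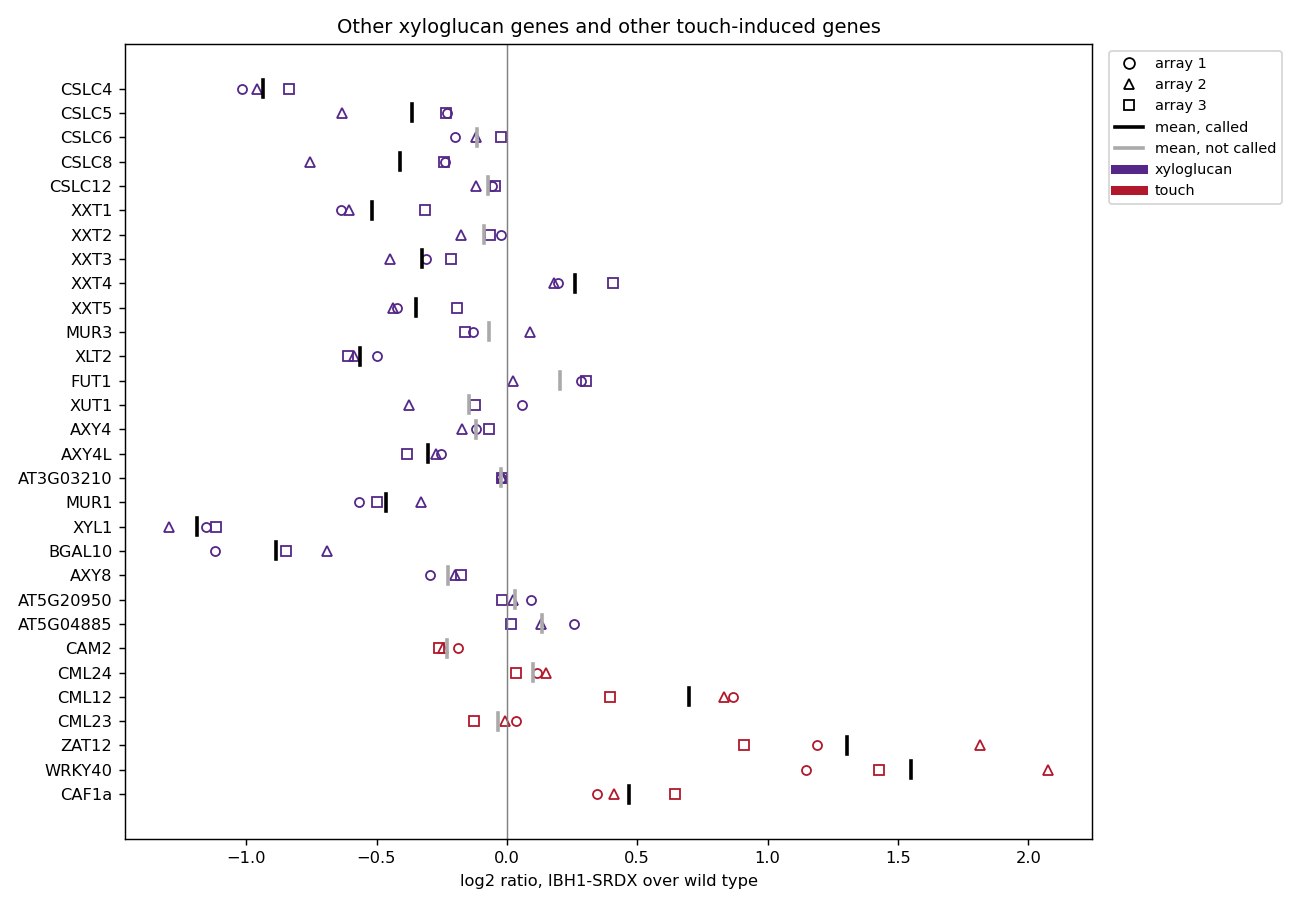
Log2 ratio of IBH1-SRDX over wild type (x axis) of 23 other xyloglucan genes (purple) and 7 other touch-induced genes (red) on arrays 1 (circles), 2 (triangles) and 3 (squares), with the mean as a bar that is black where the gene was called. XYL1, CSLC4 and BGAL10 stand lowest, and WRKY40 and ZAT12 stand highest.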

How the data were processed

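The deposited scanner files hold, per the file headers, intensity values of each spot and its local background (pixel medians) in both channels, written by Agilent Feature Extraction 9.1.3.1, and a log10 ratio, Cy5 divided by Cy3, from the same program. Values of the deposited series table are natural log ratios (IBH1-SRDX divided by wild type), a scale, direction and constant (-0.0929) found here from the numbers, with column medians of 0.0019, -0.225 and 0.0046; where the constant comes from is unknown. 

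Local backgrounds marked as outliers were set to the median of their array and channel. Background was removed by normexp (offset 50) and ratios were normalised by loess, with controls at weight 0. Control and outlier spots were dropped. Spots of each probe were averaged. Probes above background in a genotype on all 3 arrays were kept, and the probe with the highest average signal represented its locus. Ratios from arrays 1 and 3 changed sign, so that all read IBH1-SRDX divided by wild type, and were tested with limma 3.58.1 (R 4.3.3, data.table version 1.17.8) and Benjamini-Hochberg adjustment. The fit had 2 residual and 4.88 prior degrees of freedom, so the SE is drawn toward the spread pooled over genes. An exact sign-flip test of 3 arrays cannot go below p = 0.25. With the dyes reversed on a single array, 33.3% of any dye bias stays in a mean. Genotype signals are channel values after loess and Aquantile scaling. The steps were tested on simulated data. The 12 alternatives were no background correction, outlier backgrounds kept, median centring, the Feature Extraction log ratio, the series table, no filter, both genotypes above background, the mean of a locus's probes, a dye term, and each array left out.

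The members, lists and tests were chosen with earlier results of these data known. Array values are given for all touch members, for up to 4 genes per direction with the smallest adjusted p in the other XTH lists, and for up to 3 called genes per direction with the largest change elsewhere; values on arrays of XTH8, XTH9, XTH15, XTH21 and XTH26 were added after seeing them. Symbols and gene order come from the TAIR10.1 gene table, which held 19769 of the 19875 tested loci, without coordinates, since the sources used here name no build for the array. Sequences were not analysed here.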

Additional observations from a re-analysis of the deposited data

How the results depend on the processing

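The family's fall held under the 12 alternatives, while its counts did not. With outlier backgrounds kept, 1141 loci were higher and 1918 lower, with 10 XTH genes and 6 other xyloglucan genes lower and 0 of the latter higher. With median centring these were 591 and 674 loci, 1 XTH gene higher and 9 lower, and 0 and 3 other xyloglucan genes, and the family median was -0.56 while that of all loci moved to -0.10. With the authors' series table, 6369 loci were lower and 0 other xyloglucan genes higher, and the family median was -0.61 beside -0.15 for all loci. No other xyloglucan gene was higher (0) without the filter on dim probes, the touch-minus-shoot difference was 1.84 with both genotypes above background, and the family median was -0.48 with a dye term. Leaving out each array gave 2319 to 3894 loci higher and 2490 to 4303 lower, 3 to 5 XTH genes higher and 14 to 16 lower, 0 to 2 and 7 to 10 other xyloglucan genes, and differences of 1.33 to 1.61; the lowest counts of loci came without replicate 1 and the 5 without replicate 2. The sign turned for uncalled genes only: XTH32 (-0.031 with outlier backgrounds kept, -0.099 with median centring, -0.021 with the Feature Extraction ratio, -0.155 in the series table, -0.013 to 0.034 leaving out arrays, lowest without replicate 1), XTH13 (-0.070 in the series table), XTH12 (-0.215 to 0.197 leaving out arrays) and XTH22 (-0.0083 to 0.270), both turning without replicate 2. Of 347 gene values under alternatives, 301 kept direction and call, 28 lost a call and 10 gained one. These include the filter and probe-mean settings, which could not change the ratio of a member. The series table followed the Feature Extraction log ratio with a slope of 1.00 and a constant of -0.0929 (natural log) on each array. Its ratios thus differ from those of that setting by this shift. Where neither the shift nor fewer arrays account for a change, the cause was not tested. Every ratio compares the genotypes within an array, so the reported test is itself paired by replicate. No paired analysis was possible beyond it because the ratios hold no further replicate term. Signal over background limits the members with the dimmest signals, among them XTH12, XTH13, XTH17, XTH19 and XTH25. The median absolute dye coefficient was 0.19 for the XTH genes (highest 0.38) and 0.086 for all loci. No dye effect was called in limma (0 loci, 3321 at unadjusted p below 0.05), in a fit of 1 array against 2 with 1 residual degree of freedom, which says little about its absence.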
